A study of Mus musculus with 6 samples.

Results

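Pisd and its 2 transcribed pseudogenes, Pisd-ps1 and Pisd-ps2, were followed in primary mouse macrophages that had been pushed towards the osteoclast fate. Members were the rows of the deposited files that carry these gene symbols, 3 of 26699 rows, and all 3 passed the filter on low counts that left 16843 genes for testing. The conditional knockout cells (cKO) were bone marrow macrophages of LysmCre-Slc11a2flox/flox mice, in which Cre recombinase under the lysozyme M promoter, active in the myeloid lineage, deletes floxed Slc11a2, the gene of a divalent metal transporter. The control cells were those of Slc11a2flox/flox litters without Cre, so Cre itself and the loss of Slc11a2 cannot be told apart. Both genotypes came from mice aged 8 weeks, were expanded in 10 ng/mL M-CSF and then received 30 ng/mL M-CSF with 50 ng/mL RANKL, the inducer of osteoclast differentiation, for 48 hours. Each genotype had 3 polyadenylated RNA libraries, and total counts ran from 49720701 to 55279336 in cKO and from 52989755 to 57797282 in control. The labels do not say if the libraries of a genotype stem from separate mice or cultures, so every p-value measures only how these libraries vary, which may be technical.

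Pisd encodes phosphatidylserine decarboxylase, an enzyme of the inner mitochondrial membrane that converts phosphatidylserine into phosphatidylethanolamine, one of the main membrane lipids of mitochondria. The proenzyme cuts itself at a short conserved motif, and the cut creates the pyruvoyl group that the enzyme needs for catalysis. Osteoclasts are rich in mitochondria, whose membranes draw on this pathway and on ethanolamine-based synthesis in the endoplasmic reticulum. An unprocessed pseudogene is a copy made by duplication of genomic DNA, so it keeps the introns of its parent, and it is called transcribed where RNA from it has been found. The members were chosen because the copies differed between these genotypes, so their levels in cKO and control are given below as a description, without a test.

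The parent gene and the copies lie on different chromosomes. On mm10 the deposited rows place Pisd at chr5:32736301-32785646 on the minus strand, Pisd-ps1 at chr11:3125904-3130146 on the plus strand and Pisd-ps2 at chr17:3076578-3084082 on the minus strand. Sequences below are from the GENCODE M21 transcripts, which use the same build, and RNA letters are written as T. Pisd-ps1-201, the spliced transcript of 7 exons and 1115 nt, aligned over its whole length to Pisd-203, a coding transcript of Pisd with 375 codons, with 95.2% identical bases, 53 mismatches and 3 deletions that remove 13 nt. Pisd-ps2-202, also of 7 exons and 1175 nt long, aligned over 1046 nt with 96.3% identical bases, 39 mismatches and 3 deletions that remove 25 nt. Its first exon of 127 nt had no match in Pisd-203. Pisd-ps1-201 and Pisd-ps2-202 matched each other at 96.5% of 1043 aligned positions. Of the 50 positions at which Pisd-ps1 differs from Pisd and the 38 at which Pisd-ps2 does, counted where all 3 align, 27 hold the same base in both copies, which is 54.0% of the Pisd-ps1 differences and 71.1% of the Pisd-ps2 differences.

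The copies carry an exon that is in only some transcripts of Pisd. Exon 2 of each copy, 166 nt long, corresponds to exon 4 of Pisd-203, with 7 mismatches in Pisd-ps1 and 9 in Pisd-ps2 and no gap. The longest local alignment of that exon to Pisd-201, the transcript that starts at the upstream end of the gene, was 11 nt. The exon is shown here because both copies share it with 7 of the 14 annotated Pisd transcripts, all of which start at the downstream end of the gene. Capitals in Pisd mark positions where at least 1 copy differs, and capitals in a copy mark its own differences from Pisd. The regions are chr5:32740624-32740789 on the minus strand, chr11:3127479-3127644 on the plus strand and chr17:3080869-3081034 on the minus strand.
Pisd, exon 4 of Pisd-203: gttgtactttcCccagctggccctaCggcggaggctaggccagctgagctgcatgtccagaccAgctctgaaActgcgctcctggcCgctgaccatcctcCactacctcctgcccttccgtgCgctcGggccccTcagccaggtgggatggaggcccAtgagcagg
Pisd-ps1, exon 2: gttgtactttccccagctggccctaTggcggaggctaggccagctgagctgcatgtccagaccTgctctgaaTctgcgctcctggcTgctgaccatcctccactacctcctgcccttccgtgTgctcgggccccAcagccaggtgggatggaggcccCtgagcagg
Pisd-ps2, exon 2: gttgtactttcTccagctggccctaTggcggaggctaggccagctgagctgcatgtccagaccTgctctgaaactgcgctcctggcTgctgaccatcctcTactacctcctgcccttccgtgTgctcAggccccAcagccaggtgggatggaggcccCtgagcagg

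The reading frame of the enzyme is interrupted in both copies. Counted in codons of Pisd-203, the first stop lies at codon 147 in Pisd-ps1 and at codon 220 in Pisd-ps2, each upstream of the copy's first deletion. The pairs below show 30 bases and then, in capitals, the triplet at that codon.
Pisd, codon 147: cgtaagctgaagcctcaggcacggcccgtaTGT
Pisd-ps1, codon 147: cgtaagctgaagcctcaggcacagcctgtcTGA
Pisd, codon 220: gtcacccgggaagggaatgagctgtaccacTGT
Pisd-ps2, codon 220: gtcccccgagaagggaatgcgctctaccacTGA

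A second stop triplet aligned with codon 301 in both copies, at the end of an exon. In Pisd-ps2 the deletions at codons 268 and 270 lie upstream of it. The triplet is in capitals.
Pisd, codon 301: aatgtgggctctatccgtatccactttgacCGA
Pisd-ps1, codon 301: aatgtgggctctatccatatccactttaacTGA
Pisd-ps2, codon 301: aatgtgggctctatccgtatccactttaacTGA

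The self-cleavage motif of Pisd lies at codons 342 to 345, downstream of all these stops. The motif's 12 bases are in capitals in Pisd, and capitals in the copies mark the bases that differ from Pisd and, in Pisd-ps1, also the bases on either side of a deletion of 1 nt at codon 345.
Pisd: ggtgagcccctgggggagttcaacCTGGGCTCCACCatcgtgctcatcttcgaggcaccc
Pisd-ps1: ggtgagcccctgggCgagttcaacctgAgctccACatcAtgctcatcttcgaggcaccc
Pisd-ps2: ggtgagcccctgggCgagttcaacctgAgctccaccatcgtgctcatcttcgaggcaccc

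The deposited Pisd-ps1 row ends 858 nt before the M21 gene does, ahead of the last 2 exons of Pisd-ps1-201. The motif and the stop at codon 301 of Pisd-ps1 are therefore outside the counted row, and the stop at codon 147 is inside it. The Pisd-ps2 row spans the whole of Pisd-ps2-202. It stops 101 nt short of the M21 gene at the higher coordinate, which on the minus strand is the start of the gene.

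**Figure D1:**
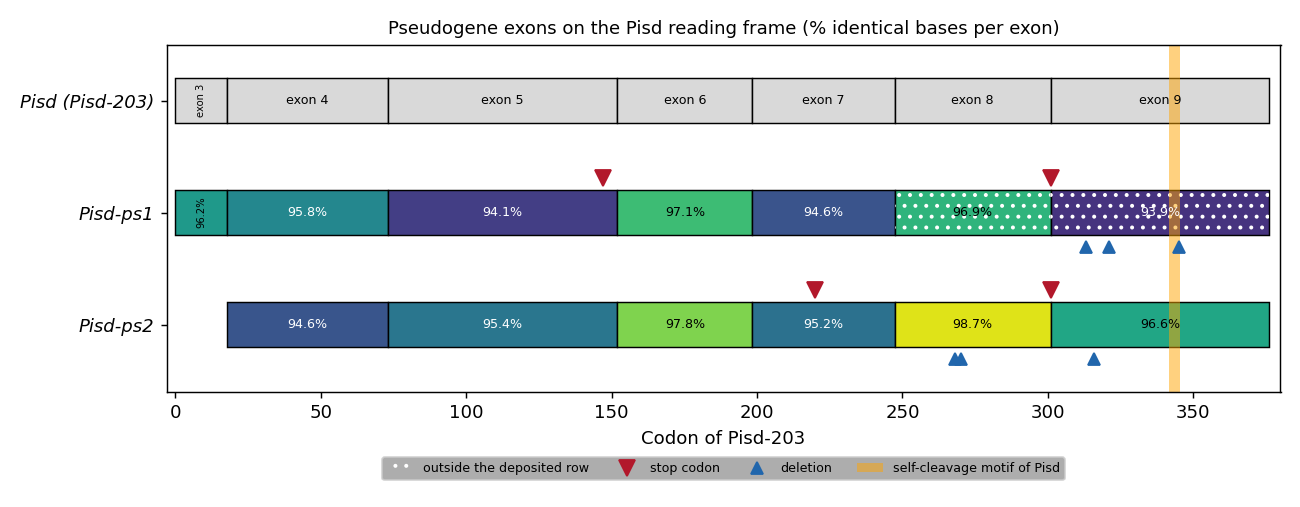
The coding exons of Pisd-203 (grey, top) and the matching exons of Pisd-ps1 and Pisd-ps2 are drawn to scale along the codons of Pisd-203, with the percentage of identical bases in each exon; dots mark the Pisd-ps1 exons beyond the deposited row. Stops at codons 147, 220 and 301 (red) and deletions (blue) break the frame of both copies ahead of or within the self-cleavage motif (orange).

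The M21 transcripts of the 3 genes could be told apart by sequence to different degrees. They are not the deposited rows exactly as counted: 78.8% of the M21 exon bases of Pisd-ps1 lie within its row. Only annotated transcripts were searched. Of the 1768 distinct stretches of 100 nt in the M21 transcripts of Pisd-ps1, 0 occur in a transcript of another gene. For Pisd-ps2 98.2% are its own, and 1.84% also occur in Pisd. For Pisd 84.1% are its own, and 0.597% occur in Pisd-ps2. At 50 nt, 11.4% of the stretches of Pisd-ps1, 11.7% of those of Pisd-ps2 and 4.90% of those of Pisd occur in another of these 3 genes. Most of the stretches of 50 nt that Pisd shares with genes outside the family, 1113 of them, are in Gm20671, an overlapping read-through gene of M21 that was not analysed here. The sources used here do not say how reads that match several places were treated, nor whether the strand was used in counting, so the split of reads between the 3 rows is uncertain. RefSeq lists a further copy, Pisd-ps3, on an unplaced sequence, which was not analysed here.

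The parent gene was nearly level between the genotypes. Pisd, the decarboxylase gene itself, had 5852, 7367 and 6243 reads in cKO replicates 1 to 3, against 6004, 6169 and 5976 reads in control replicates 1 to 3. As CPM, reads scaled to a common library total after TMM normalization, these were 116.1, 131.8 and 117.1 in cKO, against 115.4, 107.6 and 104.2 in control. cKO replicate 2 stood above the other 5 libraries, and the lowest cKO library was 1.01 times the highest control library. Pisd averaged 121.7 ± 8.80 CPM in cKO and 109 ± 5.73 CPM in control (SD, n = 3 each), a fitted log2 fold change of 0.16 ± 0.07 (SE).

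The copy on chromosome 11 was present at about double the control level in cKO. Pisd-ps1 had 3782, 4235 and 3747 reads in cKO, against 1922, 1923 and 2180 reads in control. In CPM these were 75.1, 75.8 and 70.3 in cKO, against 36.9, 33.5 and 38.0 in control. The 3 cKO libraries lay close together, and the lowest of them was 1.85 times the highest control library. The averages were 73.7 ± 2.98 CPM in cKO and 36.2 ± 2.34 CPM in control (SD, n = 3 each), a log2 fold change of 1.03 ± 0.07 (SE) that stood at place 496 of 16843 genes ordered from the highest.

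The copy on chromosome 17 was the least abundant and differed by a like factor. Pisd-ps2 had 882, 1080 and 930 reads in cKO, against 372, 489 and 517 reads in control. In CPM these were 17.5, 19.3 and 17.4 in cKO, against 7.15, 8.53 and 9.01 in control. The lowest cKO library was 1.94 times the highest control library, and the control libraries differed among themselves more, relative to their mean, than the cKO libraries did. Pisd-ps2 averaged 18.1 ± 1.07 CPM in cKO and 8.23 ± 0.968 CPM in control (SD, n = 3 each), a log2 fold change of 1.14 ± 0.12 (SE), at place 396 of 16843. The groups did not overlap in CPM for any of the 3 members; since the members were picked on this contrast, that is a description only. Over all genes tested, 11.1% had every cKO library above every control library and 11.4% had every cKO library below.

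**Figure D2:**
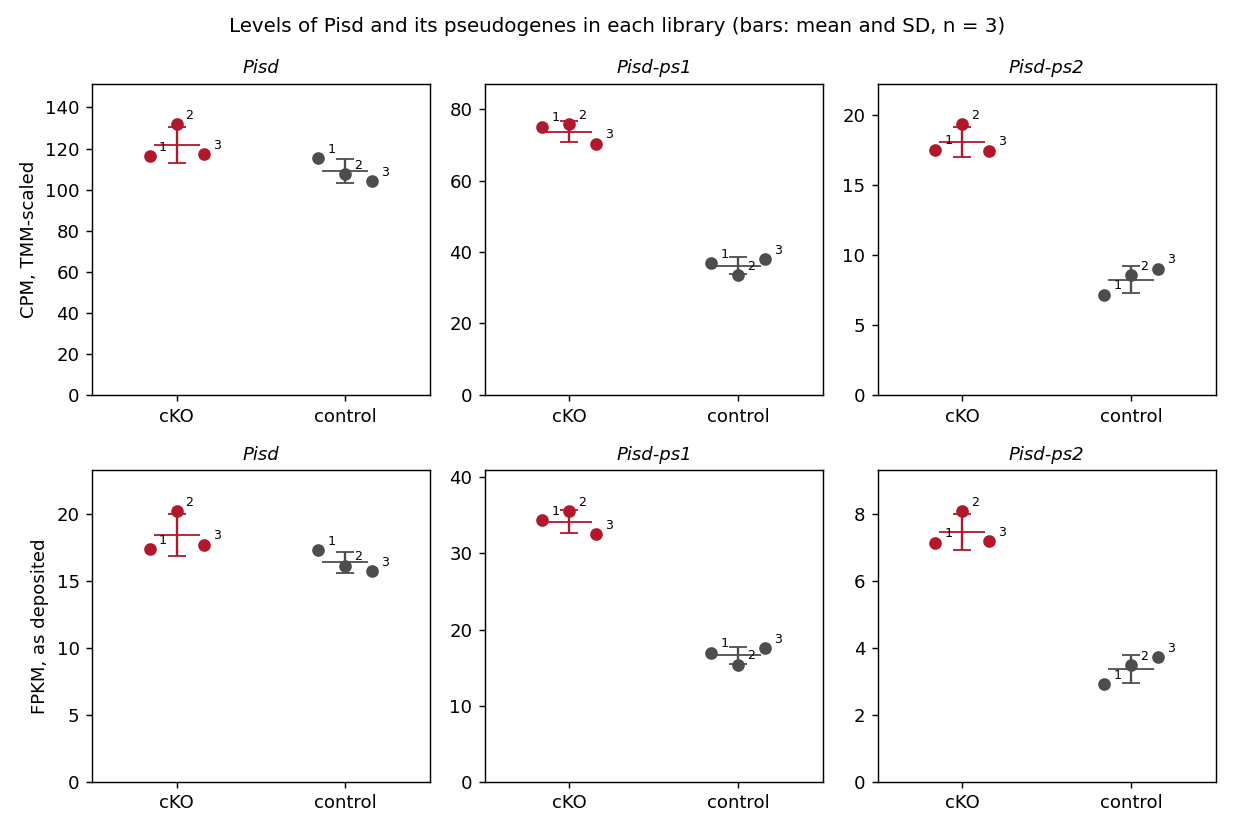
Each point is a library (replicate number beside it), with the mean and SD of 3 libraries as bars, cKO left of control; the upper row gives TMM-scaled CPM and the lower row the deposited FPKM, both from 0. Pisd-ps1 lies between 70.3 and 75.8 CPM in cKO and between 33.5 and 38.0 CPM in control, while the Pisd groups nearly touch.

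The 3 genes shared their highest library in cKO but not in control. In cKO, replicate 2 was the highest library for all 3 genes. In control, replicate 3 was the highest library for both copies and the lowest for Pisd, and replicate 1 was the highest for Pisd and the lowest for Pisd-ps2. These are orders within groups of 3. In CPM the differences are small for the copies but larger for Pisd, the most abundant. Pisd ran from 116.1 to 131.8 CPM in cKO and from 104.2 to 115.4 CPM in control. In log2 CPM the larger group SD was 0.102 for Pisd, 0.095 for Pisd-ps1 and 0.175 for Pisd-ps2, so in relative terms Pisd-ps2 varied most.

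By deposited FPKM, a level per length, Pisd-ps1 stood beside or above its parent. The deposited FPKM of Pisd-ps1 averaged 34.2 ± 1.54 in cKO and 16.6 ± 1.12 in control, and those of Pisd averaged 18.4 ± 1.56 in cKO and 16.4 ± 0.799 in control (SD, n = 3 each). In cKO every Pisd-ps1 value, 32.5 to 35.6 FPKM, was above every Pisd value, 17.4 to 20.2 FPKM. In control the genes overlapped, with Pisd-ps1 at 15.4 to 17.6 FPKM and Pisd at 15.7 to 17.3 FPKM, so their order there is within the spread. Pisd-ps2 was lowest in both genotypes, at 7.46 ± 0.537 FPKM in cKO and 3.37 ± 0.412 FPKM in control. The ratio of Pisd-ps1 to Pisd in FPKM was 1.98, 1.76 and 1.84 in cKO replicates 1 to 3, against 0.981, 0.955 and 1.12 in control replicates 1 to 3. The ratio of Pisd-ps2 to Pisd was 0.411, 0.400 and 0.405 in cKO, against 0.169, 0.216 and 0.236 in control. These ratios rest on the lengths behind the deposited FPKM. In them Pisd counted as 3.06 times as long as Pisd-ps1 and as 2.72 to 2.73 times as long as Pisd-ps2. Single transcripts are closer in length: Pisd-203 has 2491 nt, Pisd-ps1-201 1115 nt and Pisd-ps2-202 1175 nt. On those whole lengths both ratios would be lower. The counted Pisd-ps1 row leaves out exons 6 and 7 of Pisd-ps1-201, of 161 and 212 nt. On the counted part of that transcript the ratio of Pisd-ps1 to Pisd would be higher, not lower. The order of Pisd-ps1 and Pisd in control therefore depends on the length used.

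The share of the family's reads that came from the copies needs no scaling between libraries. It was 44.4%, 41.9% and 42.8% in cKO replicates 1 to 3, of 10516, 12682 and 10920 reads. In control replicates 1 to 3 it was 27.6%, 28.1% and 31.1%, of 8298, 8581 and 8673 reads. The 95% Wilson intervals reach from 41.1% to 45.3% over the cKO libraries and from 26.7% to 32.1% over the control libraries and cover counting error only. The share averaged 43.0% ± 1.23 in cKO and 29.0% ± 1.87 in control (SD, n = 3 each), a difference of 14.1 percentage points. The 3 genes summed to 213.5 ± 11.8 CPM in cKO and 153.4 ± 5.27 CPM in control, and of the difference of 60.1 CPM, 62.5% came from Pisd-ps1, 16.4% from Pisd-ps2 and 21.1% from Pisd.

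The proportion of the copies to each other overlapped between the genotypes. Per 100 Pisd-ps1 reads there were 23.3, 25.5 and 24.8 Pisd-ps2 reads in cKO, against 19.4, 25.4 and 23.7 in control. Control replicate 1 was the lowest of the 6 libraries. The means were 24.5 ± 1.12 in cKO and 22.8 ± 3.13 in control (SD, n = 3 each).

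**Figure D3:**
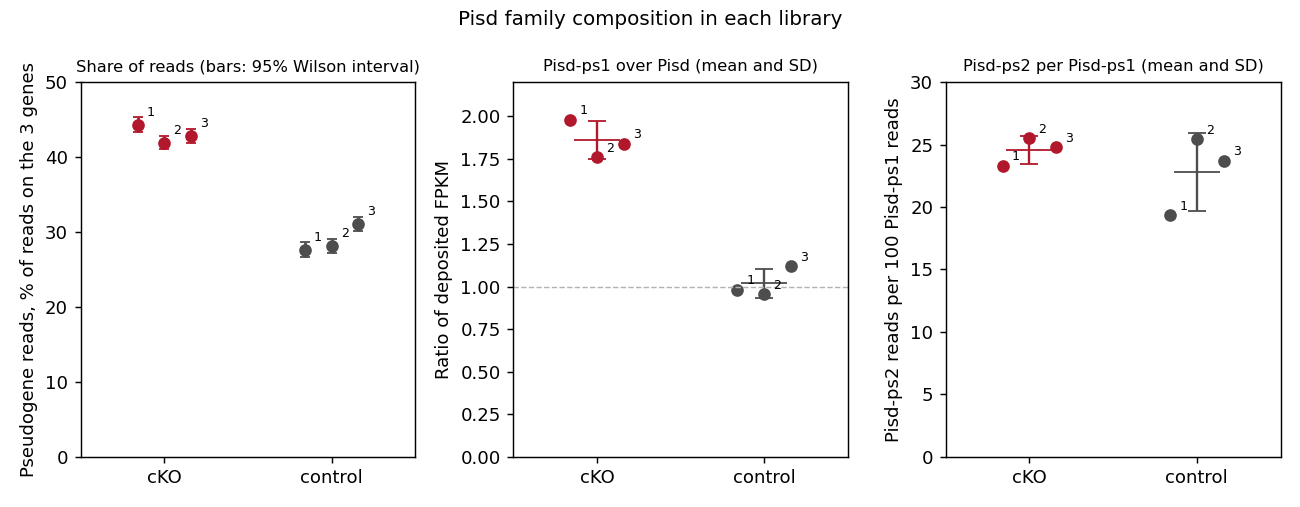
Left, reads on the copies as a percentage of reads on Pisd, Pisd-ps1 and Pisd-ps2, per library with 95% Wilson intervals; middle, the ratio of Pisd-ps1 to Pisd in deposited FPKM; right, Pisd-ps2 reads per 100 Pisd-ps1 reads (mean and SD of 3 libraries, cKO left of control). The share is 41.9% to 44.4% in cKO and 27.6% to 31.1% in control, whereas the proportion between the copies overlaps.

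Genes with the closest pattern were sought among those averaging at least 1 CPM, by the root mean square distance between centred log2 CPM values over the 6 libraries. Each copy was near the other: Pisd-ps2 was in place 6 and Pisd-ps1 in place 5 of the other's 13239 candidates, at a distance of 0.136, and Pisd was in place 1794 from Pisd-ps1 and in place 2052 from Pisd-ps2. Gm46620 and Ksr2, a scaffold of the MAP kinase cascade, were nearest to Pisd-ps1, at distances of 0.078 and 0.095. Those nearest to Pisd-ps2 were Ksr2, Gm46620 and Mamdc2, at 0.121, 0.132 and 0.134. Those nearest to Pisd were Matk, a kinase that acts on Src-family kinases, Gpn3, a small GTPase, and Snapc4, a subunit of the complex that drives small nuclear RNA genes, at 0.029, 0.029 and 0.030. Likeness is measured here on the values that chose the members and in libraries of 2 genotypes, so any gene with a similar difference between genotypes is near.

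The surroundings of the 3 genes were compared because they sit in unrelated places. Of the 98 rows within 1 Mb of a member, 51 were tested and 1 was called at an adjusted p below 0.05 (edgeR's quasi-likelihood test, Benjamini-Hochberg over all genes), against 2.42% of all genes, 1.36% called higher in cKO and 1.06% called lower. The median log2 fold change of these neighbours was 0.02, against 0.00 over all genes. No row overlapped a member.

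Around Pisd, 0 of 19 tested neighbours were called by edgeR or by DESeq2, and 3 had an unadjusted p below 0.05, against 17.2% of all genes. On the lower-coordinate side, Yes1, a Src-family kinase gene, had a log2 fold change of 0.01 ± 0.21 (SE) and Ppp1cb, a catalytic subunit of protein phosphatase 1, had -0.15 ± 0.07. On the other side, Prr14l, 4174 nt away, had 0.10 ± 0.09 and Depdc5, a subunit of the GATOR1 inhibitor of mTORC1, had -0.07 ± 0.08. The 19 log2 fold changes ran from -0.20 to 0.86, and that of Pisd, 0.16 ± 0.07, lay within this range.

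Around Pisd-ps1, which has no tested gene on its lower-coordinate side within 1 Mb, 1 of 25 tested neighbours was called. Drg1, a GTP-binding protein gene 57214 nt away, fell in cKO: it averaged 40.3 ± 1.42 CPM in cKO and 50.6 ± 3.03 CPM in control (SD, n = 3 each), a log2 fold change of -0.33 ± 0.07 (SE; edgeR adjusted p = 0.0303), and the call was lost when any library other than cKO replicate 3 was left out, with adjusted p values up to 0.192. The nearest tested gene, Sfi1, which encodes a centrin-binding protein of the centrosome, lies 1704 nt beyond the Pisd-ps1 row. That row ends 858 nt before the M21 gene, so the Sfi1 row is nearer to the M21 gene than to the counted row. Sfi1 averaged 22.7 ± 2.07 CPM in cKO and 16.9 ± 1.58 CPM in control, a log2 fold change of 0.43 ± 0.10. This did not pass in edgeR (adjusted p = 0.0522, and 0.0292 to 0.206 over the edgeR alternatives) and passed in DESeq2 (adjusted p = 0.00716). Annotated Sfi1 transcripts share 33 distinct stretches of 50 nt with those of Pisd. Gm11400, the next tested row, had 0.58 ± 0.51 at under 1 CPM.

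Around Pisd-ps2, 0 of 7 tested neighbours were called by edgeR or DESeq2, against 2.42% and 5.19% of all genes. At an unadjusted p below 0.05 there was 1, or 14.3%, against 17.2% of all genes. Gm10232 on the lower-coordinate side had a log2 fold change of 0.34 ± 0.26 (SE). Gm21926 on the other side, 19093 nt away, had 0.12 ± 0.15, and Scaf8, whose product binds the tail of RNA polymerase II, had 0.02 ± 0.07.

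**Figure D4:**
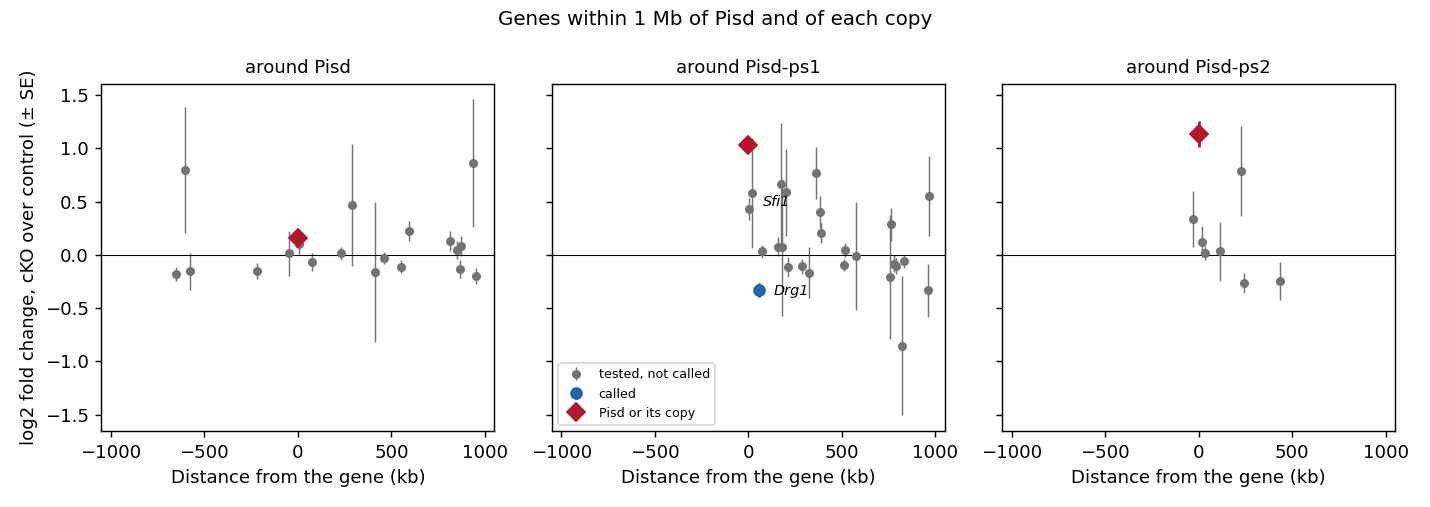
Each point is a tested gene within 1 Mb, placed by its distance from Pisd, Pisd-ps1 or Pisd-ps2 in kb, with its log2 fold change (cKO over control) and SE; the red diamond is the gene or copy itself and the blue point is the called neighbour. Both copies lie above the neighbours, whose only call is Drg1 at -0.33, and Pisd lies among its own.

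The other genes of phosphatidylethanolamine and phosphatidylserine metabolism did not pass the test. Of 23 listed genes 21 were tested, and edgeR and DESeq2 each called 0. At an unadjusted p below 0.05 there were 4, or 19.0%, against 17.2% of all genes. The median log2 fold change was -0.04, and 7 values were positive and 14 negative. The lowest p values belonged to Lpin1, a phosphatidate phosphatase, at 0.23 ± 0.07 (SE; edgeR adjusted p = 0.108), Plpp1, a lipid phosphatase of the cell surface, at -0.32 ± 0.10 (adjusted p = 0.132), Etnk1, an ethanolamine kinase of the route that bypasses Pisd, at 0.18 ± 0.07 (adjusted p = 0.194), and Pcyt1b, an enzyme of phosphatidylcholine synthesis, at 0.93 ± 0.35 (adjusted p = 0.199). Pcyt1b was low, at 1.87 ± 0.615 CPM in cKO and 0.982 ± 0.356 CPM in control (SD, n = 3 each).

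The steps on either side of Pisd were picked out by role after their values were seen. Ptdss1 and Ptdss2, the synthases that make phosphatidylserine, the substrate of Pisd, had log2 fold changes of -0.12 ± 0.06 and -0.04 ± 0.10 (SE). Pcyt2 and Selenoi, which complete the ethanolamine route in the endoplasmic reticulum after Etnk1, had 0.12 ± 0.09 and -0.06 ± 0.08. Pemt, which methylates phosphatidylethanolamine to phosphatidylcholine, had -0.30 ± 0.33 at about 1 CPM. Each of these 5 had an adjusted p of at least 0.310 in edgeR.

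Genes that carry phospholipids to and within mitochondria, build cardiolipin or hold mitochondria to the endoplasmic reticulum gave 0 calls in edgeR among 25 tested of 26 listed, against 2.42% of all genes. DESeq2 called 1, against 5.19% of all genes. At an unadjusted p below 0.05 there were 7, or 28.0%, against 17.2% of all genes. The median log2 fold change was -0.09, and 7 values were positive and 18 negative, against 8485 positive and 8358 negative over all genes. Stard7, which carries phosphatidylcholine to mitochondria, averaged 60.9 ± 4.79 CPM in cKO and 73.8 ± 3.10 CPM in control (SD, n = 3 each), a log2 fold change of -0.28 ± 0.07 (SE; edgeR adjusted p = 0.0604), and it was the DESeq2 call (adjusted p = 0.0170). Pacs2, a protein of contacts between mitochondria and the endoplasmic reticulum, had 0.17 ± 0.06 (edgeR adjusted p = 0.160), Ptpmt1, a phosphatase of cardiolipin synthesis, had -0.25 ± 0.09 (adjusted p = 0.161), and Mfn2, the mitofusin that also tethers the organelles, had -0.16 ± 0.06 (adjusted p = 0.175).

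**Figure D5:**
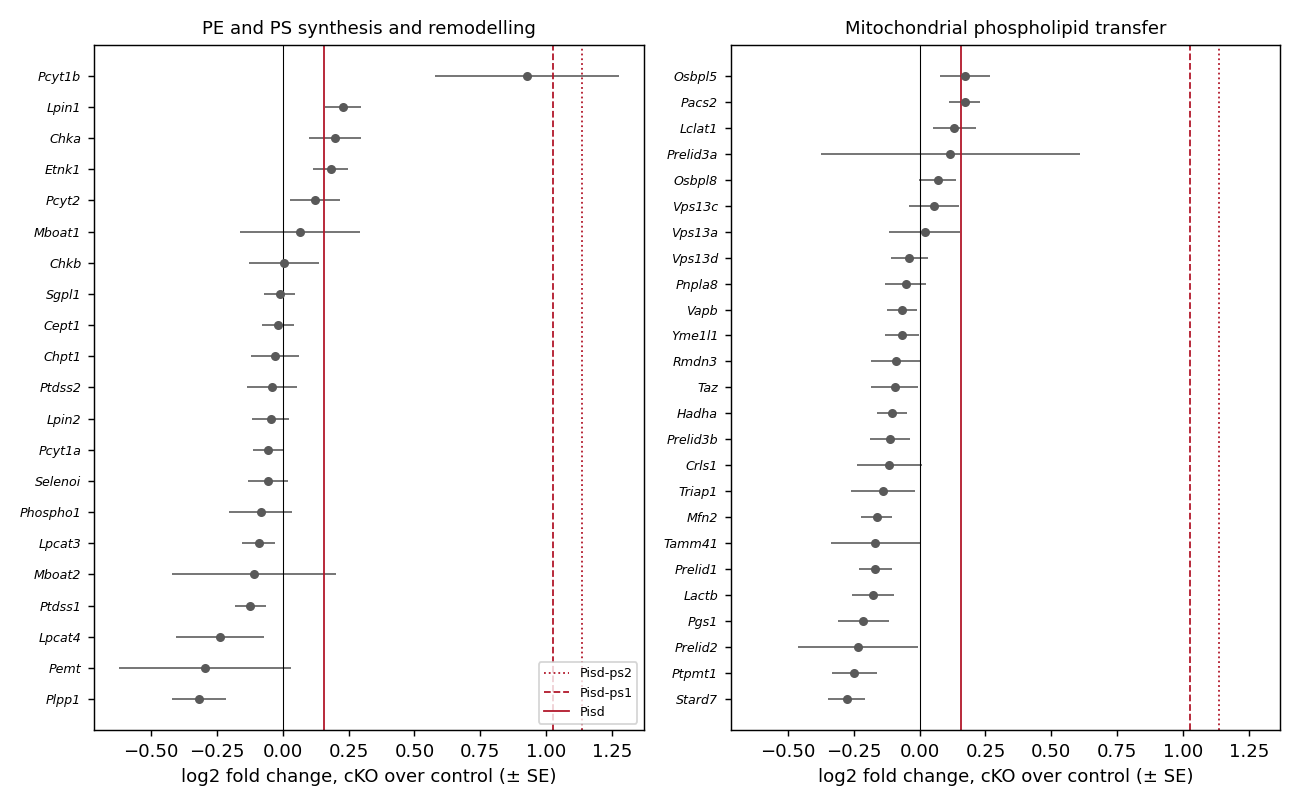
Log2 fold changes (cKO over control, ± SE) of the tested genes of phosphatidylethanolamine (PE) and phosphatidylserine (PS) synthesis, left, and of mitochondrial phospholipid transfer, right; red lines mark Pisd (solid), Pisd-ps1 (dashed) and Pisd-ps2 (dotted). The points centre on medians of -0.04 and -0.09, none was called by edgeR, and Pisd at 0.16 lies within their range.

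Other named pseudogenes were called less often than genes at large, though about as often in the direction lower in cKO. Among other rows whose symbol ends in -ps, with or without a number, 328 of 536 were tested, edgeR called 0 higher and 3 lower in cKO, against 1.36% of all genes called higher and 1.06% called lower, and the median log2 fold change was -0.02. The 3 calls are 0.915% of the rows tested, against 2.42% of all genes called in either direction. DESeq2 called 1 higher and 4 lower, against 5.19% of all genes in either direction. The 3 edgeR calls were Mid1-ps1, a copy of the ubiquitin ligase gene Mid1, at -1.55 ± 0.23 (SE; edgeR adjusted p = 0.00609), Atp6v0c-ps2, a copy of a gene for a proton channel subunit of the vacuolar ATPase, at -0.29 ± 0.06 (adjusted p = 0.0382), and Rps7-ps3, a copy of a ribosomal protein gene, at -0.27 ± 0.06 (adjusted p = 0.0458). The call of Mid1-ps1 held when any library was left out, that of Atp6v0c-ps2 was lost without any of the 6 libraries in turn (adjusted p = 0.0540 to 0.144), and that of Rps7-ps3 was lost without any library other than cKO replicate 2 (adjusted p = 0.0442 to 0.252). At an unadjusted p below 0.05 there were 23 of 328, or 7.01%, against 17.2% of all genes. Many of these rows averaged below 1 CPM, where a call is harder to reach. The shares over all genes were not matched for level, so the lower shares cannot be read as a trait of pseudogenes. Mid1-ps1 averaged 1.07 ± 0.197 CPM in cKO and 3.12 ± 0.248 CPM in control (SD, n = 3 each).

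The labels were checked on Slc11a2, which was at 78.3 to 87.4 CPM in cKO and 109.6 to 118.5 CPM in control, a log2 fold change of -0.48 ± 0.06 (SE; edgeR adjusted p = 0.00219), and on Lyz2, which hosts the Cre, at -1.14 ± 0.08 (adjusted p = 9.39e-06). Markers of macrophages summed to 6504 to 7033 CPM in cKO and 6713 to 7286 CPM in control. Those of osteoclasts summed to 8463 to 12100 CPM in cKO and 11684 to 15161 CPM in control. EdgeR called 0 of 7 and 0 of 9, against 2.42% of all genes, and DESeq2 called 1 and 0, against 5.19%. At an unadjusted p below 0.05 there were 1 and 3, against 17.2%. The log2 fold changes of all 9 osteoclast markers were below 0 (median -0.38), and those of 4 of the 7 macrophage markers were (median -0.05). Neutrophil markers moved in the same direction as the copies: 4 of 6 tested were called higher in cKO, against 1.36% of all genes, and the sum of the 7 with a row was 47.0 to 60.5 CPM in cKO and 20.5 to 25.6 CPM in control. Of their defining members Ngp averaged 20.8 CPM in cKO and 7.79 CPM in control, Mpo 0.479 CPM in cKO and 0.842 CPM in control, and Elane 0.0847 CPM in cKO and 0.302 CPM in control, with libraries at 0 in both genotypes. Stromal markers summed to 3219 to 5166 CPM in cKO and 3419 to 3989 CPM in control. Of these 7, edgeR called 0, against 2.42% of all genes, and DESeq2 called 1, against 5.19%. At an unadjusted p below 0.05 there were 3, against 17.2%. All 7 log2 fold changes were positive, with a median of 0.42. Erythroid and B cell markers summed to at most 1.38 and 1.09 CPM in any library, and the T and NK cell sum of 50.3 to 60.6 CPM over all libraries was almost wholly Cd4. Of 48 markers 7 have no row here and were not analysed. The part of these cells in the difference of the copies was not tested, and in bulk samples fewer cells of a type and less RNA per cell cannot be told apart.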

How the data were processed

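RNA-seq of 6 libraries was analysed, 3 for each genotype, grouped by the genotype in the labels. The authors deposited whole-number read counts per gene, per the file headers, and FPKM values made by the authors, per the file headers. Libraries were made by oligo(dT) selection with a dUTP step that marks the strand, per the labels' protocols. The submitters' processing notes name cutadapt 1.9 and mm10; the sources used here do not give the aligner, counter and annotation. The members, lists and tests were chosen with earlier results of these data known.

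Counts were tested with edgeR 4.0.16 in R 4.3.3: filterByExpr (minimum count 10, minimum total 15), TMM scaling, robust quasi-likelihood F test, Benjamini-Hochberg adjustment over all genes tested, called below 0.05. The standard error is the size of the log2 fold change divided by the square root of F. DESeq2 1.42.0 and the other alternatives are in the closing section. The fit was tested on simulated data. For members no p is given. Deposited FPKM served for levels per length, with log2(FPKM + 0.01) for fold changes. Transcripts of GENCODE M21 were aligned with Biopython 1.88.

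Libraries of 1 genotype differed by 15.1 to 33.1 chi-square units per degree of freedom, so none repeats another. One read equals 0.0173 to 0.0201 CPM.

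The genes named are the members, Slc11a2 and Lyz2; from each list up to 6 called genes or else the 4 with the smallest p; the 2 nearest tested rows on each side of a member and called rows within 1 Mb; and the 3 genes most like each member, of which 1 is not reported here. Markers are given as sums with defining members, and any other gene was picked after its values were seen, as stated beside it.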

Additional observations from a re-analysis of the deposited data

How the results depend on the processing

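The fitted log2 fold changes of the 3 genes kept their sign and moved by less than 1 SD between replicates under all 11 alternatives run for each: when a library was left out they were 0.10 to 0.20 for Pisd, 0.97 to 1.07 for Pisd-ps1 and 1.05 to 1.21 for Pisd-ps2. The share of reads on the copies differed by 13.4 to 15.2 percentage points when a library was left out. Their share of summed deposited FPKM, an unlike quantity that depends on the lengths used, averaged 69.3% in cKO and 55.0% in control. It differed by 14.4 points. The count of all genes called was 407 in edgeR, 874 in DESeq2, 673 with a replicate block, and 59 to 624 without 1 library, the lowest without cKO replicate 1; the cause was not tested. Same-numbered libraries showed no shared deviations (correlations of -0.025, -0.018 and -0.004), which with 3 libraries per genotype cannot exclude pairing. The block was kept out of the main fit. Of the mitochondrial phospholipid transfer genes, 0 were called, but 1 in DESeq2, 1 with the block and 0 to 1 without a library. Of the other pseudogenes 3 were called, 5 in DESeq2 and 1 to 2 without a library. Of the neighbours 1 was called, 2 in DESeq2, 2 with no filter, 2 with the block and 0 to 2 without a library; within 500 kb it was also 1. The phosphatidylethanolamine and phosphatidylserine genes had 0 calls under each of 10 alternatives. Depth limits little for the 3 genes, the lowest value being 372 reads.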
